A study of Mus musculus with 6 samples.

Results

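The core circadian clock genes were examined in lumbar dorsal root ganglia, which hold the cell bodies of the sensory neurons of the leg. The set holds 10 genes, found by their gene symbols among the 54242 symbols of the table: the activators Arntl, Clock and Npas2, the repressors Per1, Per2, Per3, Cry1 and Cry2, and the REV-ERB receptor genes Nr1d1 and Nr1d2. The rule takes them by name and uses no measured value, although the set was proposed with earlier results of these data known. All libraries came from L4-6 ganglia of male C57bl/6 mice aged 8-10 weeks. The 3 fed libraries were from mice with food ad libitum, and the 3 fasted libraries from mice after 10 days of intermittent fasting; no other agent or allele is named for either group. After enzymatic dissociation, a BSA gradient enriched the neurons, and polyadenylated RNA was sequenced. The labels state that the animals were killed after 24 hours, without saying after what, and the sources used here do not give the clock hour of killing. Whether a library is 1 animal or a pool is not stated either, so p-values measure the spread between libraries, which may be technical in part.

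Nearly every mammalian cell carries a clock built on a delayed negative loop. ARNTL (also called BMAL1) pairs with CLOCK, or with its relative NPAS2, and the pair binds E-box sequences to switch on the Per and Cry genes and Nr1d1 and Nr1d2. PER and CRY proteins accumulate, enter the nucleus and silence the pair, while the REV-ERB proteins repress Arntl itself. Feeding time and glucocorticoid hormone are known to set the phase of such clocks in peripheral tissues. Arntl and the Per genes are known to peak at opposite phases of the day. The clock hour of killing is not given for either group. A difference in hour or phase between the groups therefore cannot be told apart from one of diet.

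Levels are given as TPM, the abundance of a transcript corrected for its length and scaled to a fixed total per library, so levels can be compared between genes. Values of a group are given in the order of replicates 1, 2 and 3. TPM keep no sequencing depth, so the counting error of each value is unknown. All 10 genes were among the 15097 that averaged 1 TPM or more across the 6 libraries and were tested. Differences are log2 fold changes of TPM + 1, fasted minus fed, tested with limma across all 15097 genes with Benjamini-Hochberg adjustment. The added 1 TPM makes the fold changes of genes at low levels smaller. Fed replicate 2 stood apart by its skeletal muscle RNA: 14 markers summed to 4632 TPM there and to 278.4 to 669.5 TPM in the other 5 libraries, with Ckm at 490.0 TPM.

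Promoter sequence, where the loop's factors are known to bind, is shown for the 5 members with the smallest p, as the 250 bases before a RefSeq start site (GRCm38.p6), written 5′ to 3′. Capitals mark E-boxes (CACGTG), E-prime boxes (CACGTT), D-boxes (TTANGTAA) and matches to the ROR pattern TNGGTCA, searched on both strands.
Arntl, chr7:113207215-113207464, plus strand: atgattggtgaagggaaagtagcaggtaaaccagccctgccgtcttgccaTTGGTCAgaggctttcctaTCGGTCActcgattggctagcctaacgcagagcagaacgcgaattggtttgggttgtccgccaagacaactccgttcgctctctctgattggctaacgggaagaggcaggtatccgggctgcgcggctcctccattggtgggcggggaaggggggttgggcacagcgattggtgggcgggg
Per1, chr11:69098699-69098948, plus strand: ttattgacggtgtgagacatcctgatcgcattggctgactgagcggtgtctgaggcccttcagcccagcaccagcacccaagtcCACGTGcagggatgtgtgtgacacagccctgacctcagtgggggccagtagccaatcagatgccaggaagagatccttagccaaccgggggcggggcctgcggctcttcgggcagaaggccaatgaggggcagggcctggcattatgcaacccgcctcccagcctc
Per3, chr4:151044666-151044915, minus strand: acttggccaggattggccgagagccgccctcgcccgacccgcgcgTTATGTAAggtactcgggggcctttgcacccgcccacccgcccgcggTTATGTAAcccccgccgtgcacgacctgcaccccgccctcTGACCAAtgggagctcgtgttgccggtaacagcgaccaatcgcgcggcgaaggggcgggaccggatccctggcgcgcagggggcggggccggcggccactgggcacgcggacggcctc
Cry1, chr10:85185055-85185304, minus strand: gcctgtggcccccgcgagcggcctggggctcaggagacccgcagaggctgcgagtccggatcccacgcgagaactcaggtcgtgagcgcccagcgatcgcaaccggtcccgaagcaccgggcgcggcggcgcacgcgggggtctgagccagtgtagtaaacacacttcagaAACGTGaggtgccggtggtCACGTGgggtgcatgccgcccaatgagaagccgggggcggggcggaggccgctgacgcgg
Nr1d1, chr11:98775378-98775627, minus strand: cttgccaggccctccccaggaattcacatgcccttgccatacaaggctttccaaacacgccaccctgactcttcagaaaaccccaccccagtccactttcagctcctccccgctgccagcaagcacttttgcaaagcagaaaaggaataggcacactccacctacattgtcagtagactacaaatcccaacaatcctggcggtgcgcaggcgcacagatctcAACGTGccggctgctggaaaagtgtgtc
The RefSeq table holds 13 windows of 9 members, some with several start sites (Per2 had no entry). The E-box was found in 2 of the 13 windows, of Per1 and Cry1, against 6.02% of all 32851 promoter windows of the same length. The E-prime box lay in 3 windows, of Cry1, Cry2 and Nr1d1 (3.85% of all windows), and the D-box, the site of the clock output factors DBP, TEF, HLF and NFIL3, occurred in 1 of the 13 windows, that of Per3 (2.06% of all windows), at 205 and at 158 bases before the start. The ROR pattern TNGGTCA, a loose form of the site where REV-ERB and ROR receptors compete, matched in 4 windows. They were those of Arntl (both of its overlapping windows), Cry2 and Per3 (9.19% of all windows). Every match read TTGGTCA or TCGGTCA on one strand, with T or C at the open base. Neither this open base nor the bases around the matches were restricted in the search, so a match need not be a receptor site. One of the 2 matches in Arntl, and those in Cry2 and Per3, overlapped a CCAAT box, a general promoter motif present in 33.8% of all windows. Neither the cyclic AMP element TGACGTCA (1.55% of all windows) nor the palindromic glucocorticoid response element (0.00913% of all windows) was found in any of the 13 windows. A match is a description of letters, and its absence here covers these 250 bases only.

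In these ganglia the levels of 7 members did not overlap between the diets, in both directions. Arntl and Nr1d1 were lower in every fasted library than in any fed one, and Per1, Per2, Per3, Cry1 and Cry2 were higher in every fasted library. The fasted mean was 37.8% below the fed mean for Arntl and 57.7% above it for Per1, on the TPM scale. Clock, Npas2 and Nr1d2 overlapped between the diets. No member passed an adjusted p of 0.05 over all genes (limma; 0 of 10, where 0.00662% of all tested genes, 1 gene, passed in either direction). With an unadjusted p under 0.05, 4 of 10 were higher (Per1, Per3, Cry1 and Cry2), against 6.72% of all tested genes, and 2 of 10 were lower (Arntl and Nr1d1), against 3.22%. Under median-of-ratios scaling 3 members were higher, Cry2 no longer among them, and 2 lower, and the calls over all genes were then 567 higher and 733 lower instead of 1015 and 486. Without overlap between the diets were 5 higher, against 12.7% of all tested genes, and 2 lower, against 5.07%. The median log2 fold change of the 10 was 0.14, beside 0.03 over all tested genes. For the reason given at the start, these counts are descriptions of the set.

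**Figure D1:**
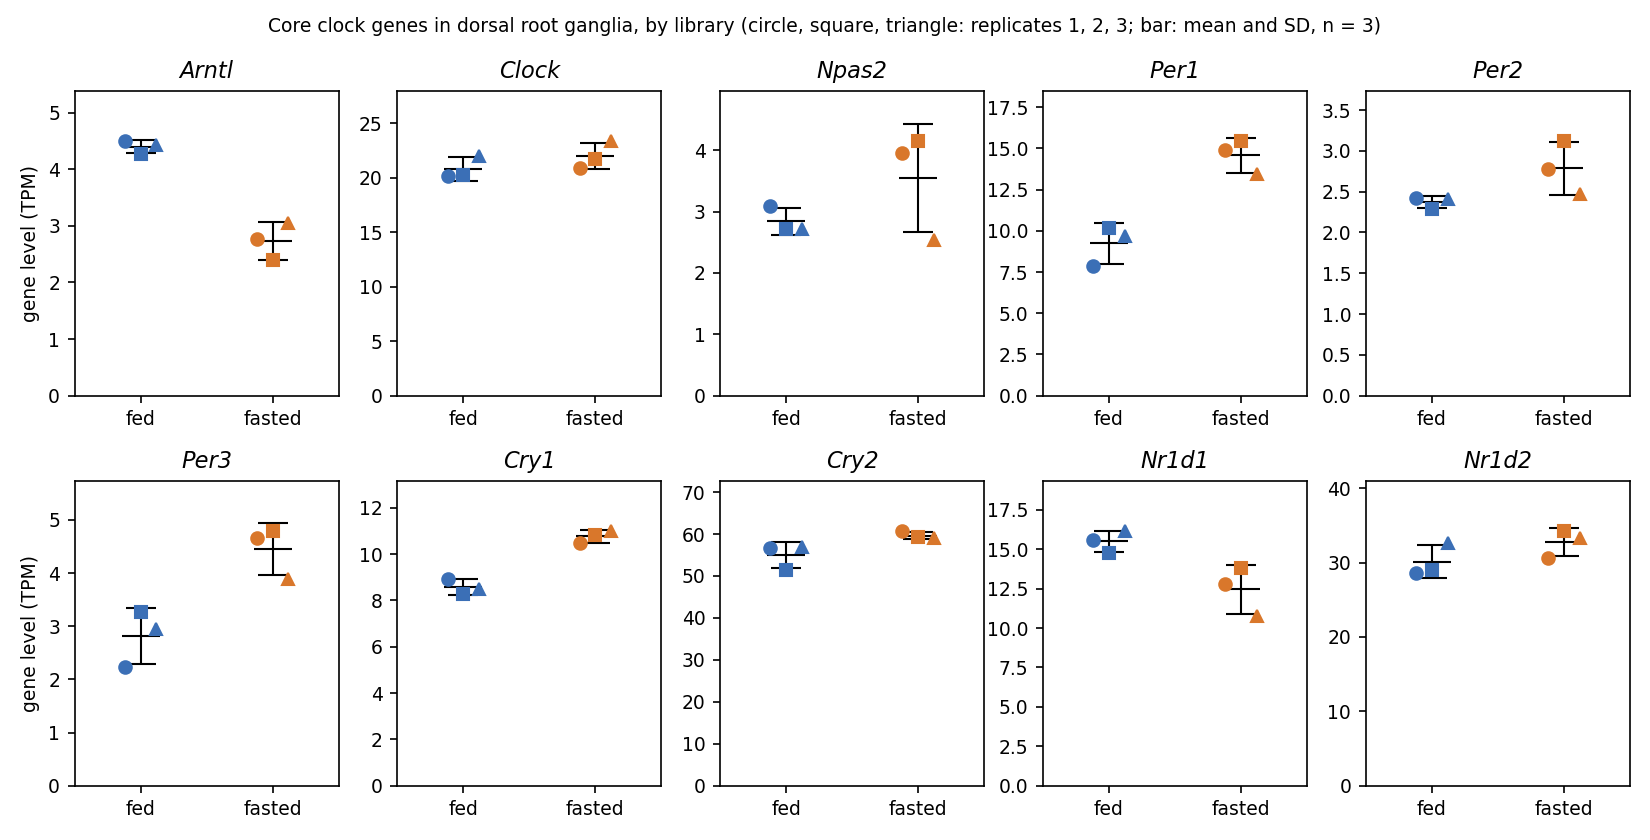
Level of each core clock gene in TPM (vertical axes, each from 0) in 3 fed (blue) and 3 fasted (orange) libraries; circles, squares and triangles are replicates 1, 2 and 3, and bars show the mean and SD. The orange points lie wholly below the blue ones for Arntl and Nr1d1 and wholly above them for Per1, Per2, Per3, Cry1 and Cry2.

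Among the activators, Arntl stood at 4.49, 4.27 and 4.43 TPM when fed and at 2.76, 2.39 and 3.06 TPM when fasted. All 3 fed values lay close together and above the fasted ones. The log2 fold change was -0.53 (95% interval -0.77 to -0.30, standard error 0.10; limma, adjusted p = 0.41), the 33rd smallest p of all tested genes. It stayed between -0.60 and -0.47 with each library left out in turn, and was -0.67 with 0.1 TPM added instead of 1. Clock, the partner of ARNTL and a histone acetyltransferase, was at 20.1, 20.2 and 22.0 TPM when fed, against 20.9, 21.7 and 23.3 TPM when fasted. Its groups overlapped, with a log2 fold change of 0.08 (95% interval -0.07 to 0.22), or 0.04 without fasted replicate 3 and 0.12 without fed replicate 3. Within a library, Clock exceeded Arntl by 4.48 to 4.97 times in fed and by 7.56 to 9.09 times in fasted mice. Npas2, the CLOCK relative that is prominent in the forebrain, was at 3.09, 2.72 and 2.72 TPM against 3.95, 4.14 and 2.53 TPM. Fasted replicates 1 and 2 were the highest of the 6 and fasted replicate 3 the lowest, and the log2 fold change was 0.22 (95% interval -0.14 to 0.59), or 0.40 without fasted replicate 3 and 0.12 without fasted replicate 2.

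The Per genes, whose proteins carry CRY into the nucleus, were led by Per1. It was at 7.86, 10.2 and 9.68 TPM when fed and at 14.9, 15.4 and 13.4 TPM when fasted. Every fasted library was above every fed one, and Per1 had the 16th smallest p of the 15097 genes (log2 fold change 0.61, 95% interval 0.37 to 0.85, standard error 0.10; limma, adjusted p = 0.40). Per3, the member of the family that the core loop needs least, was at 2.23, 3.26 and 2.95 TPM against 4.67, 4.78 and 3.89 TPM. The lowest fasted value, in replicate 3, was above the highest fed one, and the log2 fold change was 0.52 (95% interval 0.21 to 0.83; limma, adjusted p = 0.42). On the TPM scale the fasted mean was 58.0% above the fed mean for Per3 and 57.7% for Per1. With 0.1 TPM added instead of 1, the log2 fold changes were 0.65 for Per3 and 0.66 for Per1. Per2, which together with Per1 is required for rhythm, had the lowest mean over the 6 libraries, at 2.42, 2.28 and 2.42 TPM against 2.78, 3.12 and 2.47 TPM. Its groups were separated by a narrow margin, between 2.42 TPM in fed replicate 1 and 2.47 TPM in fasted replicate 3. They overlapped under median-of-ratios scaling, and the log2 fold change was 0.16 (95% interval -0.09 to 0.42), or 0.10 without fasted replicate 2.

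Of the cryptochromes, the direct inhibitors of the ARNTL pair, Cry1 showed the larger difference. It was at 8.93, 8.28 and 8.50 TPM when fed, against 10.46, 10.84 and 10.98 TPM when fasted. The fed and fasted ranges were apart, with the 57th smallest p of all tested genes (log2 fold change 0.30, 95% interval 0.15 to 0.44, standard error 0.06; limma, adjusted p = 0.41). Cry2 was the most abundant member, at 56.7, 51.4 and 56.9 TPM against 60.6, 59.2 and 59.0 TPM. Fed replicate 2 was the lowest of its group, and without it the log2 fold change was 0.07 instead of 0.12 (95% interval 0.00098 to 0.23; limma, adjusted p = 0.50). The unadjusted p of Cry2 was 0.049 on TPM and 0.087 under median-of-ratios scaling. The ratio of Cry2 to Cry1 within a library was 6.21 to 6.69 in fed and 5.38 to 5.80 in fasted mice.

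The 2 REV-ERB genes, nuclear receptors that bind haem and repress Arntl, did not share a direction. Nr1d1 was at 15.6, 14.8 and 16.1 TPM when fed, against 12.8, 13.8 and 10.8 TPM when fasted. All fasted values were lower, that of replicate 3 the most, with a log2 fold change of -0.30 (95% interval -0.51 to -0.09, standard error 0.09; limma, adjusted p = 0.48), or -0.21 without fasted replicate 3. Nr1d2 was at 28.6, 29.1 and 32.7 TPM against 30.6, 34.2 and 33.4 TPM. These groups overlapped (log2 fold change 0.12, 95% interval -0.04 to 0.27), and the value was 0.17 without fed replicate 3 and 0.16 without fasted replicate 1. Nr1d2 exceeded Nr1d1 by 1.84 to 2.02 times in fed and by 2.39 to 3.10 times in fasted libraries. The 3' end of Nr1d1 lies opposite the thyroid hormone receptor gene Thra: 263 of its 3077 exonic bases, 8.55%, overlap Thra on the other strand. The library kit keeps strand, but the sources used here do not say whether the quantification used it, so reads from the shared bases cannot be assigned with certainty. Thra itself was at 266.1, 234.9 and 273.3 TPM when fed, against 281.4, 283.4 and 288.6 TPM when fasted, higher where Nr1d1 was lower.

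**Figure D2:**
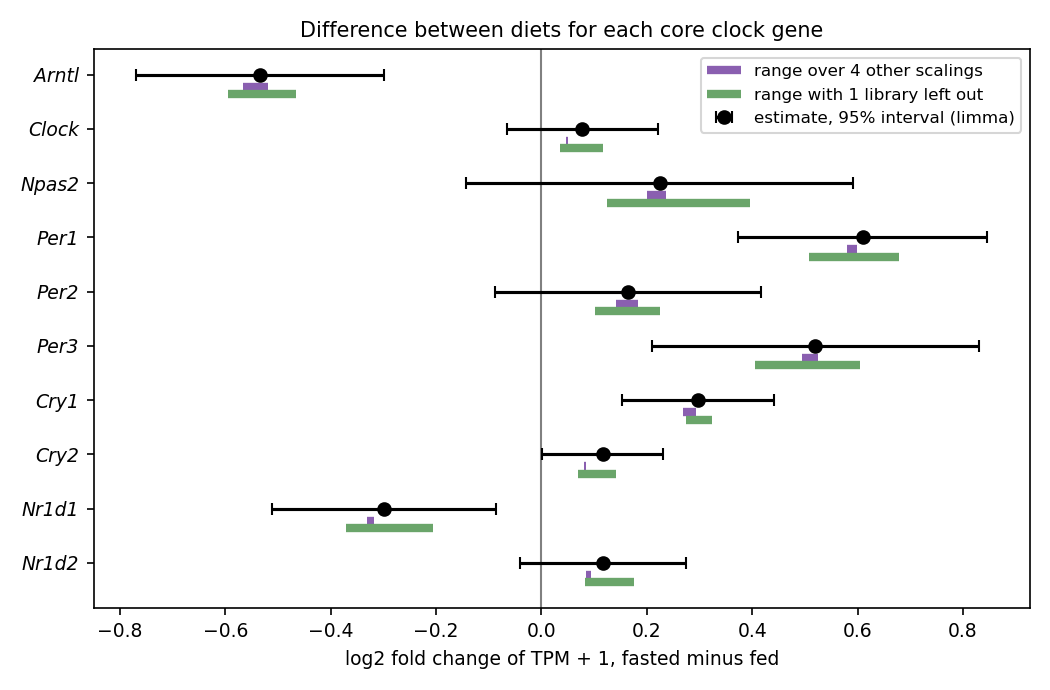
Log2 fold change of TPM + 1, fasted minus fed (horizontal axis), for each of the 10 genes; black points and bars are limma estimates with 95% intervals, purple bars the range over 4 other scalings and green bars the range with 1 library left out. The intervals of Arntl (-0.77 to -0.30) and Per1 (0.37 to 0.85) lie on opposite sides of 0.

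A ratio of 2 genes within a library does not depend on how that library was scaled. Per1 exceeded Arntl by 1.75, 2.39 and 2.18 times in fed replicates 1, 2 and 3 and by 5.39, 6.45 and 4.39 times in the fasted ones. Every fasted ratio was above every fed ratio. Cry1 exceeded Arntl by 1.92 to 1.99 times in fed and by 3.59 to 4.53 times in fasted libraries. Per3 was below Arntl in all 3 fed libraries (ratios 0.50 to 0.76) and above it in all 3 fasted ones (1.273 to 2.001). Per1 was below Nr1d1 in the fed libraries (0.50 to 0.69) and above it in the fasted ones (1.12 to 1.24). Clock exceeded Npas2 by 6.52, 7.44 and 8.10 times when fed and by 5.29, 5.25 and 9.21 times when fasted, the 1 pair of the 8 formed whose diets overlapped. These pairs were formed after the values were known, so the ratios carry no test. For Per1, Cry1 and Per3 over Arntl, and for Per1 over Nr1d1, the separation follows from the levels given above. The genes of each such pair were already separated between the diets, in opposite directions.

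**Figure D3:**
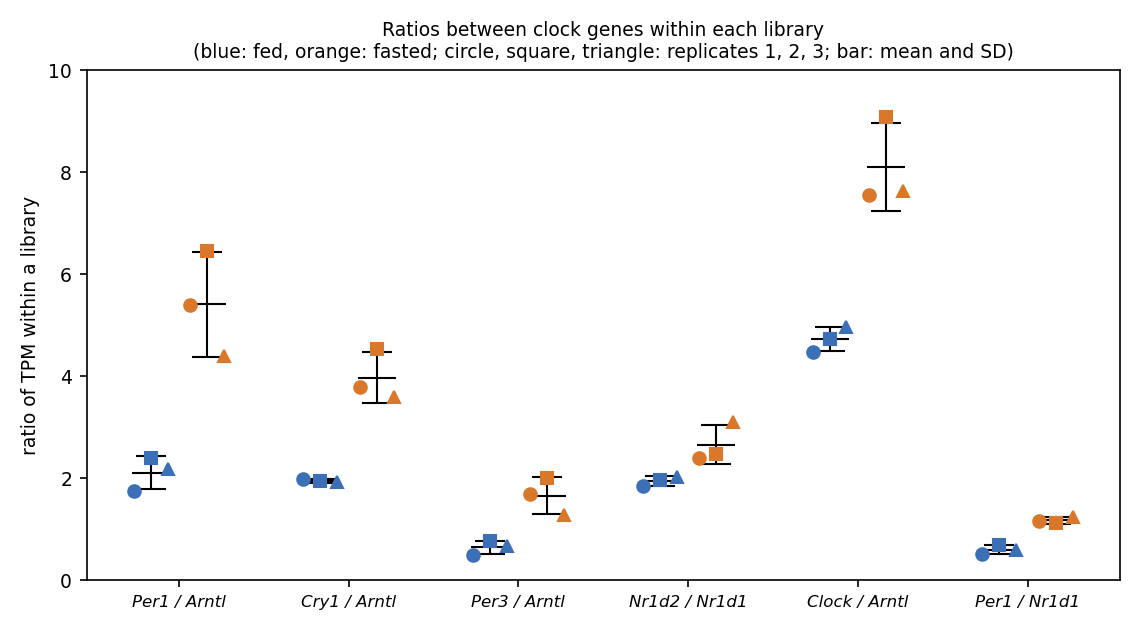
Ratio of TPM between pairs of clock genes within each library (vertical axis, linear from 0) for fed (blue) and fasted (orange) libraries; symbols are replicates and bars the mean and SD. Per1 / Arntl spans 1.75 to 2.39 when fed and 4.39 to 6.45 when fasted, and the diets do not overlap in the pairs drawn, which leave out Clock / Npas2, where they do.

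Ordered by mean level over the 6 libraries, the genes ran from Cry2 (57.3 TPM) through Nr1d2 (31.4), Clock (21.4), Nr1d1 (14.0), Per1 (11.9), Cry1 (9.67), Per3 (3.63), Arntl (3.57) and Npas2 (3.19) to Per2 (2.58 TPM). Cry2 was above Nr1d2, Nr1d2 above Clock and Clock above Nr1d1 with no overlap of their ranges, and so was Cry1 above Per3. The neighbours Nr1d1 and Per1, Per1 and Cry1, Per3 and Arntl, and Arntl and Npas2 overlapped in range, and each pair changed order in at least 1 library. Npas2 was above Per2 in 6 of 6 libraries, although by as little as 1.03 times. These gene sums include Npas2-203, a short model of 484 bases. The longer Npas2-201 alone, at 1.39 to 2.01 TPM, was below Per2 (2.28 to 3.12 TPM) and below Arntl in every library. The low end of the order by gene sums differed between the diets. By fed means it ran Arntl (4.40 TPM), Npas2 (2.84), Per3 (2.82) and Per2 (2.37), and by fasted means Per3 (4.45 TPM), Npas2 (3.54), Per2 (2.79) and Arntl (2.74), so that Arntl went from the top of these 4 genes to the bottom. In fasted replicates 1 and 2 Arntl was below Per2, and in fasted replicate 3 above it.

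The table lists 42 transcripts of these genes, of which 6 were at 0 in every library and 17 averaged 1 TPM or more. None of the 17 passed an adjusted p of 0.05 in a fit over 33197 transcripts (limma), where 0.0271% did in either direction. With an unadjusted p under 0.05, 3 were higher (Per1-201, Per3-201 and Cry1-201), against 4.49% of all tested transcripts, and 2 were lower (Arntl-201 and Nr1d1-201), against 2.71%. Each of these 5 is its gene's most abundant transcript. Arntl-201, of 2908 bases, carried 92.5% of the gene's TPM in fed and 87.1% in fasted libraries, and its log2 fold change was -0.59 (standard error 0.13). Per1-201 carried 84.5% and 87.1%, and was at 6.64, 8.35 and 8.43 TPM when fed, against 13.0, 14.0 and 11.2 TPM when fasted. Per1-202, which starts upstream at 69095217 on chromosome 11 against 69098948 for Per1-201, stayed between 0.69 and 1.85 TPM when fed and between 1.44 and 1.78 TPM when fasted. Per1-201 is the one that starts next to the promoter printed for Per1. The difference in response between these transcripts was not tested.

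Npas2 was divided between the 4236-base Npas2-201 and Npas2-203, a model of 484 bases. Npas2-201 was at 1.98, 1.39 and 2.01 TPM when fed, against 1.94, 1.99 and 1.70 TPM when fasted, with a log2 fold change of 0.05 (standard error 0.17). Npas2-203 was at 1.11, 1.33 and 0.70 TPM against 2.01, 2.16 and 0.83 TPM, so the high Npas2 values of fasted replicates 1 and 2 lay in this short model. Clock was shared by Clock-201 (46.4% of the gene's TPM in fed and 47.3% in fasted libraries) and Clock-205, which starts 244 bases upstream of it. Both overlapped between the diets (log2 fold changes 0.10 and 0.12, standard errors 0.12 and 0.08). Clock-204, a shorter coding model, was at 1.74, 1.53 and 2.36 TPM when fed, against 1.37, 1.46 and 1.38 TPM when fasted. It was lower in each fasted library, by a small margin (-0.25 on the log2 scale, standard error 0.17; limma, adjusted p = 0.75). Nr1d2-202, annotated as a retained intron, was at 0.66, 1.17 and 0.68 TPM when fed, against 1.39, 2.33 and 1.198 TPM when fasted (0.51 on the log2 scale, standard error 0.24; limma, adjusted p = 0.68). It was higher in each fasted library, while the main Nr1d2-201 overlapped between the diets.

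The share of each gene's TPM in its leading transcript was compared between the diets by exact two-sided permutation tests, which cannot go below p = 0.1 with 3 against 3. Only Cry2 reached that value (98.8% ± 0.278 in fed and 99.3% ± 0.115 in fasted libraries, SD, n = 3 each; exact p = 0.1, adjusted p = 0.9 over the 9 genes with more than 1 transcript above 0). The other 8 had exact p from 0.4 to 1, and Per2 had 1 transcript above 0. Where the transcripts of a gene share most of their sequence, such shares are less certain. Of the 31-base words in Per1-201, 1.23% were in no other Per1 transcript, as were 2.12% of those in Arntl-201 and 2.25% in Per3-201, against 91.8% in Npas2-201. Between genes, 9.51% of the 31-base words of Nr1d2 were also in AC170187.1, a symbol without values in the table, and for each other member under 0.5% occurred in another gene on the same strand.

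**Figure D4:**
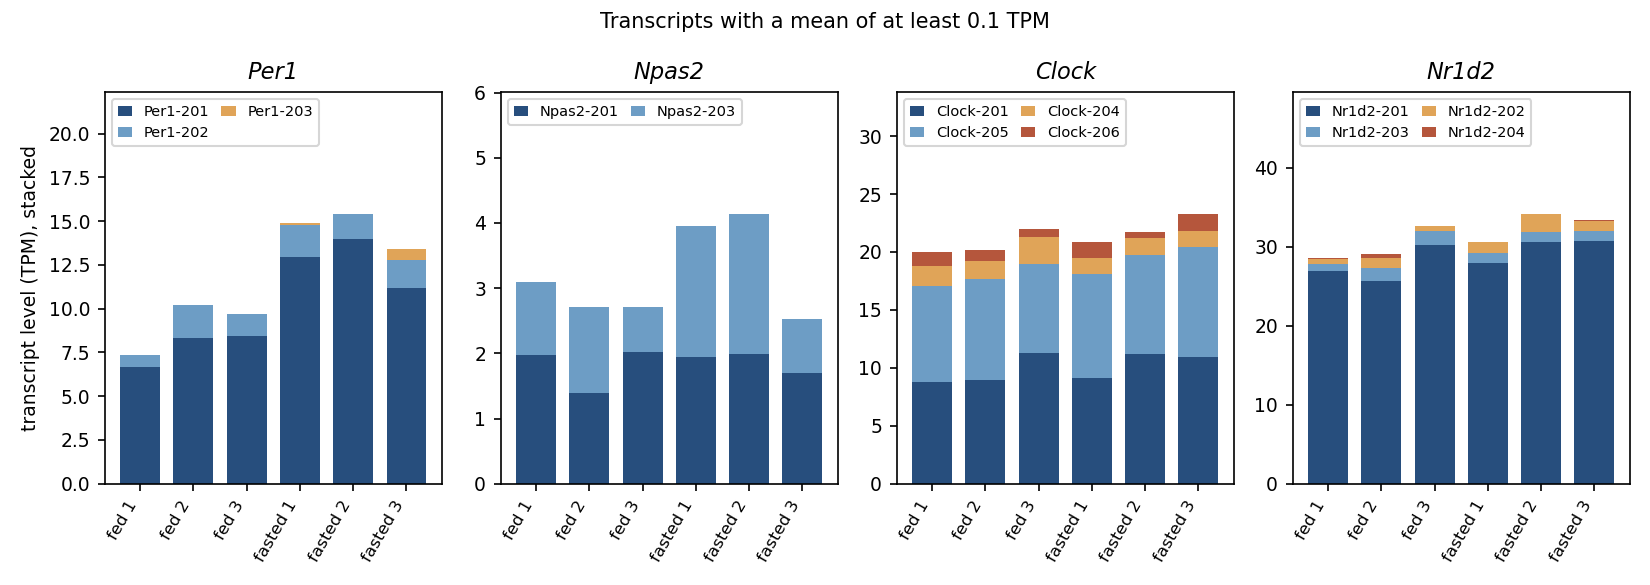
Transcript levels in TPM (stacked bars, vertical axes from 0) of Per1, Npas2, Clock and Nr1d2 in each library, for transcripts averaging 0.1 TPM or more. Per1-201 makes up most of each Per1 bar, and the short Npas2-203 stands out in fasted replicates 1 and 2.

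Other genes of the clock were taken from 4 lists of 50 genes, 48 of them tested, and none of these passed an adjusted p of 0.05 (limma). With an unadjusted p under 0.05, 12 were higher and 0 lower, where 6.72% and 3.22% of all tested genes were. Their median log2 fold change was 0.09, beside 0.03 over all tested genes. By direction alone, 40 of the 48 were higher and 8 lower on TPM, where 62.5% of all tested genes were higher. Under median-of-ratios scaling 50.9% of all tested genes were higher. The 12 became 5 without fed replicate 2, 6 without fasted replicate 1 and 6 when scaled by median-of-ratios. Over all tested genes the number higher went from 1015 to 694, 671 and 567 under the same alternatives.

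Of 18 kinases, ligases and other modifiers of PER and CRY proteins, 1 was higher (Csnk1a1, named after its value was seen) and 0 lower at that p. The casein kinase genes Csnk1d (154.5 ± 7.42 against 159.9 ± 2.06 TPM, SD, n = 3 each) and Csnk1e (60.9 ± 2.19 against 64.3 ± 1.80 TPM), whose products phosphorylate PER, both had overlapping groups. Btrc, a ligase for PER, was at 52.5 ± 3.41 against 53.3 ± 1.599 TPM, and Gsk3b at 97.7 ± 3.58 against 105.8 ± 5.19 TPM. Gsk3b was higher in every fasted library than in any fed one. Without overlap, 4 of these 18 genes were higher and 0 lower, against 12.7% and 5.07% of all tested genes. Among 14 partners and repressors of the ARNTL pair, 4 were higher (Bhlhe40, Ciart, Cipc and Nono) and 0 lower with an unadjusted p under 0.05. At that p, 6.72% of all tested genes were higher and 3.22% lower. Bhlhe40, a repressor that competes for E-boxes, was at 14.7, 18.6 and 14.8 TPM when fed, against 19.6, 19.0 and 21.1 TPM when fasted. Its relative Bhlhe41 was at 23.8 ± 1.452 against 25.5 ± 0.991 TPM. Ciart, a further repressor of the pair, was at 3.32, 3.88 and 4.22 TPM against 5.59, 4.12 and 5.29 TPM, with fasted replicate 2 inside the fed range. Cipc, a CLOCK inhibitor, was at 41.8 ± 1.69 against 46.4 ± 1.66 TPM, and the ARNTL relative Arntl2 at 2.96 ± 0.846 against 3.41 ± 1.02 TPM.

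Output factors that bind D-boxes and ROR elements showed 2 higher (Dbp and Tef) and 0 lower of 6 tested with an unadjusted p under 0.05. At that p, 6.72% of all tested genes were higher and 3.22% lower. Over the 4 lists, the 12 higher calls became 6 under median-of-ratios scaling. Dbp, an E-box-driven activator, was at 11.6, 14.7 and 17.1 TPM when fed, against 19.1, 18.3 and 17.5 TPM when fasted. Its lowest fasted value lay just above its highest fed one (0.33 on the log2 scale, standard error 0.12; limma, adjusted p = 0.49). Tef was at 51.0 ± 0.868 against 54.9 ± 1.23 TPM and Hlf at 4.01 ± 0.528 against 4.80 ± 0.417 TPM. Nfil3, the repressor of the same sites, was at 6.61 ± 0.253 against 6.19 ± 0.395 TPM. Rora was at 4.22 ± 0.410 against 4.29 ± 0.311 TPM, and Rorb, at most 0.034 TPM, was below the limit for testing. Of 11 tested outputs of the clock, 5 were higher (Tsc22d3, Klf9, Klf10, Por and Leo1) and 0 lower at that p. Nono, Klf9, Klf10, Por and Leo1 are named because they make up these counts, after their values were seen. Tsc22d3, which glucocorticoids also induce, was at 163.3, 174.0 and 173.5 TPM when fed, against 209.7, 203.7 and 206.1 TPM when fasted. Nampt, the enzyme of NAD salvage, was at 28.7 ± 1.27 against 30.3 ± 1.13 TPM.

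Per1 is known to respond to glucocorticoids and to neuronal activity as well. Of 14 glucocorticoid-induced genes, 3 were higher (Tsc22d3, Klf9 and Sgk1) and 0 lower with an unadjusted p under 0.05. Of all tested genes, 6.72% were higher and 3.22% lower at that p. By direction alone, 9 of the 14 were higher and 5 lower. Tsc22d3 and Klf9 are also among the clock outputs counted above. The kinase gene Sgk1, was at 15.4, 24.4 and 20.5 TPM against 26.2, 29.0 and 27.3 TPM, while Fkbp5 was at 38.1 ± 2.72 against 37.1 ± 4.30 TPM. Of 14 tested immediate early genes, 2 were higher (Egr3 and Jun, named after their values were seen) and 0 lower, beside the same shares of all tested genes. Egr3, a zinc finger factor induced by activity, was at 2.15, 3.31 and 3.76 TPM against 5.46, 5.63 and 5.465 TPM. Its groups did not overlap (0.70 on the log2 scale, standard error 0.15; limma, adjusted p = 0.42). Levels of Jun were 65.8, 64.8 and 61.8 TPM against 68.8, 70.8 and 71.3 TPM, and those of Fos 4.05 ± 1.08 against 3.74 ± 0.221 TPM. The part of either input in the Per1 difference was not tested. Likeness to a member was measured as the root-mean-square difference of centred log2 values over the 6 libraries, among the 11534 genes that averaged 5 TPM or more. Predicted genes (Gm, Rik) and clone names were then left out of the ranking. Closest to Per1 were the splicing kinase gene Clk1 (0.099), Tmem267 (0.12) and Sgk1 (0.128). Their log2 fold changes were smaller, at 0.46, 0.49 and 0.46, beside 0.61 for Per1. Closest to Arntl were Plk5 (0.099), the uridine phosphorylase gene Upp2 (0.10) and the retinal reductase gene Dhrs3 (0.104). These 3 also differed less between the diets, with log2 fold changes of -0.41, -0.36 and -0.36, beside -0.53 for Arntl. Clk1 was at 37.8, 53.4 and 45.4 TPM when fed, against 61.4, 69.1 and 56.8 TPM when fasted, with its low value in fed replicate 1 like Per1.

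Markers of the cell types in the preparation were compared between the diets. In bulk RNA, fewer cells of a type and less RNA per cell cannot be told apart. All 14 neuronal markers were tested, and their summed level overlapped, at 22568 to 24311 TPM in fed and 23409 to 24568 TPM in fasted libraries. Markers of Schwann cells (8322 to 9208 against 8638 to 9522 TPM) and satellite glia (5392 to 6098 against 5380 to 5595 TPM) overlapped too, and were far from 0. Of all tested genes, 3.22% were lower and 6.72% higher with an unadjusted p under 0.05. Macrophage markers, of which 7 of 10 were lower at that p, summed to 85.3 to 104.8 TPM in fed and 57.7 to 72.5 TPM in fasted libraries. Of these, Cx3cr1 was at 3.69 ± 0.1499 against 1.92 ± 0.295 TPM. Endothelial markers, also 7 of 10 lower, summed to 222.9 to 264.1 against 187.8 to 204.4 TPM. Fibroblast markers, 1 of 7 lower (Apod) and 1 higher (Lum), summed to 1823 to 1894 against 1639.9 to 1798 TPM. Apod made up most of each sum, at 1109 ± 33.5 against 977 ± 51.0 TPM. By direction alone, 4 of the 7 fibroblast markers were higher and 3 lower. All 7 pericyte and smooth muscle markers were lower by direction, 1 of them at that p. All 13 tested skeletal muscle markers were lower by direction too, 0 of them at that p. The sums of both these lists overlapped between the diets. Erythrocyte markers, 5 of 6 higher, summed to 1285 to 1565 against 1716 to 3281 TPM, with Hba-a2 highest in fasted replicate 3 (1280.5 TPM). Mitochondrially encoded genes, 11 of 13 lower, summed to 56211 to 88601 against 47399.5 to 51478 TPM. No gene of these lists was at 0 in every library, and their part in the differences of Arntl, Nr1d1, the Per genes and Cry1 was not tested. Without fed replicate 2 the log2 fold changes were -0.55 for Arntl, 0.68 for Per1, 0.60 for Per3, 0.28 for Cry1 and -0.33 for Nr1d1. Of these 5 values, that of Cry1 was smaller than with all 6 libraries, and the others were larger.

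On the GRCm38 annotation (GENCODE M21), Per1 (ENSMUSG00000020893) and Nr1d1 (ENSMUSG00000020889) lie on the same chromosome, 11, at 69095217 to 69109960 and 98767932 to 98775333. Arntl (ENSMUSG00000055116) lies on chromosome 7, 113207465 to 113314126, Cry1 (ENSMUSG00000020038) on chromosome 10, 85131700 to 85185064, and Per3 (ENSMUSG00000028957) on chromosome 4, 151003652 to 151044665. The first base of the leading transcript in that annotation coincided with the RefSeq start used above for Arntl and Per3, was 1 base upstream of it for Per1, 10 bases upstream for Cry1 and 44 bases downstream for Nr1d1.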

How the data were processed

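The authors deposited TPM per transcript for 6 libraries; each column sums to 1000000. Salmon 1.6.0, Trim Galore 0.6.6, DESeq2 1.34.0 and FastQC 0.11.9 are named, with the builds mm10 and GRCm38, per the submitters' processing notes; the sources used here do not give their roles, order or annotation release. TPM were summed per gene symbol. Groups and replicate numbers came from the labels. Log2(TPM + 1) values of the 15097 genes averaging 1 TPM or more, and of 33197 such transcripts, were fitted with limma 3.58.1 in R 4.3.3, with diet as the term and trended, moderated variances. P-values were two-sided and Benjamini-Hochberg adjusted over all features. The fit was tested on simulated data. Transcript names, lengths and positions came from GENCODE M21, which holds 98.7% of the table's transcript versions, and promoters from RefSeq. Alternatives covered pseudocount, filter, scaling, transcript choice, variance model, replicate block and each library left out. The members, gene lists, named genes and motifs were chosen with earlier results of these data known. Genes beyond the members were named from these lists by name, or, where said, because they make up a small count, and those most like Arntl and Per1 by the smallest distance; AC170187.1 and Thra were named because they share sequence or position with members. TPM keep no depth, so no counting interval is given. Figures used Python 3.11.15 and matplotlib 3.10.9.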

Additional observations from a re-analysis of the deposited data

How the results depend on the processing

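Over 196 re-fits of single members, the direction was that of the main result in 196 and an adjusted p under 0.05 was reached in 0 (limma; adjusted p from 0.21 to 0.91). The re-fits reuse the same libraries, and several leave the fold change as it was, so their shared direction is not independent evidence. The unadjusted p stayed under 0.05 in all alternatives run for Arntl, Per1, Per3, Cry1 and Nr1d1, and in 9 of 20 for Cry2. For Cry2 it was above 0.05 under each of the 4 other scalings. A minimum of 5 TPM removes Arntl, Npas2, Per2 and Per3, which left 3 higher and 1 lower with an unadjusted p under 0.05 and 3 higher and 1 lower without overlap. Of the 11534 genes then tested, 880 were higher and 344 lower at that p. Of the related genes, 12 were higher at that p on TPM, 6 under median-of-ratios and 6 under TMM-type scaling, and 5 higher and 1 lower without mitochondrial genes. With 1 library left out, 5 to 14 of them were higher and 0 to 1 lower. Of the member transcripts 2 to 5 were higher and 1 to 2 lower, the extremes of 5 and 1 without fed replicate 3. The sign of the difference in the leading transcript's share turned in some of these: fasted minus fed ran from -1.23 to 3.26 percentage points for Clock, -11.7 to 3.54 for Per3, -2.22 to 0.58 for Nr1d2 and -10.3 to 0.80 for Arntl. The cause of these shifts was not tested. With the replicate number as a block, members counted 4 higher and 2 lower as before, and related genes 13 higher and 1 lower. All 15097 tested genes then counted 1159 higher and 565 lower, instead of 1015 and 486. Counts of member transcripts were unchanged by the block, at 3 higher and 2 lower. The numbers have no stated pairing: deviations of same-numbered libraries correlated at 0.093, 0.114 and 0.066 across genes, and each library correlated best with its own number. Without depth, the precision of levels near 3 TPM, such as Arntl and Per3, cannot be given.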
